A study of Rattus norvegicus with 11 samples.

Results

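RF cells, a rat line labelled as endothelial fibroblasts, were profiled after treatment with tumour exosomes, and the array taken after ASTspan8 exosomes was set against the array taken after AS exosomes. These 2 arrays were chosen by their titles out of the 11 arrays of the series. A further array, of untreated RF, is given beside every gene to show which of the treated arrays stood away from the untreated level. The AS line comes from a rat pancreatic adenocarcinoma, and ASTspan8 cells are AS cells made to express tetraspanin 8 (Tspan8), a membrane protein found on exosomes, the small vesicles that cells release. Both exosome kinds therefore came from AS cells, and the expressed tetraspanin is the only labelled difference between the 2 treatments. The untreated RF array is labelled base line. The other 8 arrays hold 4 of a second recipient line, EC, labelled as endothelial cells (1 untreated, 1 after AS and 2 after ASTspan8 exosomes), 2 of RNA from ASTspan8 exosomes, and 2 of the pancreatic adenocarcinoma line ASML, as wild type and with CD44 knocked down. All lines were kept in RPMI medium with foetal calf serum and the selection antibiotic G418. The exosome dose, the exposure time and the number of cultures behind each RNA are not given in the sources used here, nor whether ASTspan8 is 1 clone. With 1 array a group, no difference between RF arrays has a replicate check, and none was tested.

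Exosomes carry proteins, lipids and RNA from the donor cell to a recipient, and tetraspanins take part in sorting that cargo and in binding the recipient membrane. Fibroblasts build the connective tissue matrix, divide in response to growth factors, and secrete chemokines that attract leukocytes. When amino acids run short, unfolded proteins build up or viral RNA is sensed, kinases of the integrated stress response slow protein synthesis and favour translation of the transcription factor ATF4, while interferon signalling induces antiviral genes. DNA replication and mitosis genes are driven by E2F and by the MuvB complexes, and p53 and GADD45 proteins hold cells back from division.

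The RF label was checked against cell type markers on the untreated array, where values are log2 intensities with a floor at 5.96. Of 28 fibroblast markers with a probe, 24 lay above log2 9, among them the intermediate filament gene Vim at 16.75 and the collagen gene Col1a2 at 17.40, whereas the surface marker Thy1 was near the floor at 6.32. Of 22 endothelial markers, 4 lay above log2 9, Egfl7 at 10.69, Eng at 9.69, Vwf at 9.46 and Ramp2 at 9.14. The defining junction and receptor genes Pecam1 (6.79), Cdh5 (7.96), Kdr (6.62) and Tek (6.35) did not. The source field of this array nevertheless names endothelial cell lines. Of 19 leukocyte markers 2 lay above log2 9, Cd14 at 11.52 and Itgam at 9.57, while Ptprc stood at 6.31. Of 26 epithelial markers 2 did so, Spint2 at 13.07 and St14 at 9.5, while Epcam stood at 6.12 and Cdh1 at 6.18. Tspan8 itself was near the floor in RF, at 6.65 untreated, 6.30 after AS and 6.44 after ASTspan8 exosomes, beside 10.28 and 10.16 in the 2 exosome RNA samples. Cd44, an adhesion receptor, stood at 12.94 untreated, 13.86 after AS and 13.89 after ASTspan8 exosomes.

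Of 11069 genes measured, 539 (4.87%) had a level after ASTspan8 exosomes at least 2-fold above that after AS exosomes and 535 (4.83%) a level at least 2-fold below it, together 9.7%. The median difference over all genes was 0.03 on the log2 scale, and the difference reached 4-fold upward in 49 genes and 4-fold downward in 69. For scale, the duplicate EC arrays had 4 genes at least 2-fold apart (0.0361%) and the duplicate exosome RNA arrays 185 (1.67%). Most of the separation lay on the ASTspan8 array. Against the untreated array, 571 genes were at least 2-fold higher and 581 lower after ASTspan8 exosomes, and 111 higher and 129 lower after AS exosomes. These differences share arrays and are not independent of each other.

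For each gene 2-fold apart, the untreated level was then placed relative to the treated arrays. Among the 539 higher genes the untreated level was nearer to AS in 483 (89.6%), either between the arrays (299 genes) or beyond the AS array (184). In 51 it lay between the arrays and nearer to ASTspan8, and in 4 beyond it. Among the 535 lower genes it was nearer to AS in 440 (82.2%), and in 85 between the arrays and nearer to ASTspan8. All these genes were read on the same 3 RF arrays and were chosen by the ASTspan8 minus AS difference. The shares therefore carry no measure of variation between cultures. The higher genes had a median of 1.18 above untreated after ASTspan8 exosomes and of -0.14 after AS exosomes. For the lower genes the medians were -1.08 and 0.34, so the AS array stood on the opposite side of untreated from the ASTspan8 array. In 350 higher and 295 lower genes the ASTspan8 array was 2-fold from untreated in the direction of the difference and the AS array was not 2-fold from it in the opposite direction. The reverse held for 14 and 35 genes. In 175 higher (32.5%) and 199 lower genes (37.2%) neither array was 2-fold from untreated in those directions, and in 6 lower genes both were. Where several probes of a gene were kept, all lay in the same direction for 91 of 97 higher and 104 of 115 lower genes. Every kept probe was 2-fold apart in 40 and 62 of these genes. The genes were chosen by the difference on 1 of those probes, and the share over all genes was not counted.

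**Figure D1:**
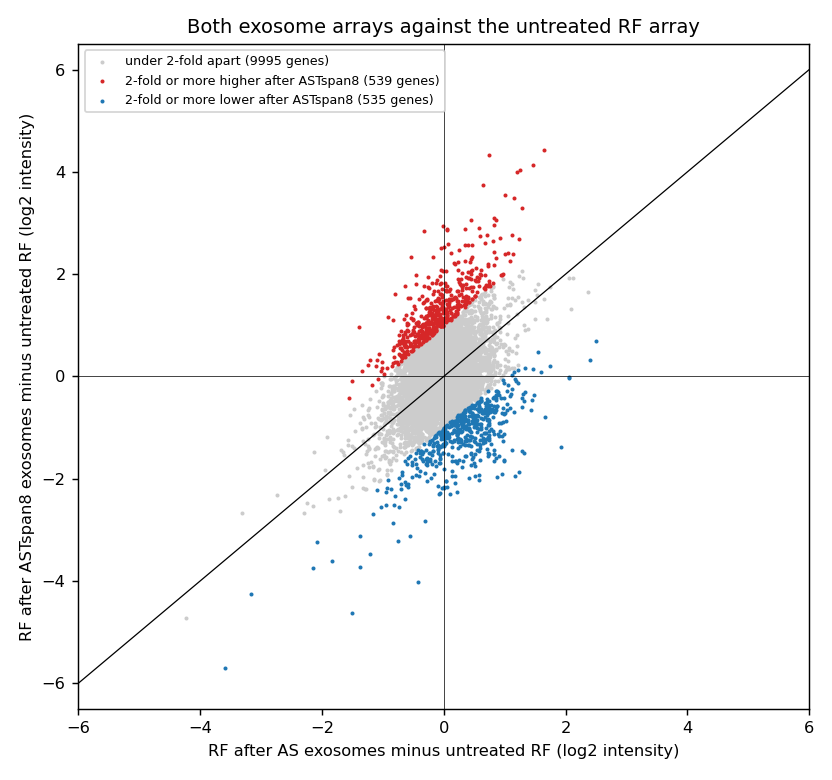
Each point is 1 of 11069 genes, with its level after AS exosomes minus untreated RF on the x axis and after ASTspan8 exosomes minus untreated RF on the y axis, both in log2 intensity from 1 array each, and the diagonal marks equal levels after both exosomes. The 539 genes higher after ASTspan8 and the 535 lower spread mainly along the vertical axis, and the untreated level is a part of both coordinates.

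Genes of mitosis and of DNA replication had the largest shares of 2-fold lower genes among the 38 lists examined. The replication list has 60 genes, of which 58 had a named probe and 56 were measured past the filter on dim probes. Of these 56, 32 (57.1%) were at least 2-fold lower after ASTspan8 than after AS exosomes and none was 2-fold higher. Over all genes the shares were 4.83% and 4.87%. The list median was -1.26, beside 0.03 for all genes. Against untreated RF the list median was 0.59 after AS and -0.58 after ASTspan8 exosomes. The mitosis list has 54 genes, 50 with a probe and 48 measured, and 42 of these (87.5%) were at least 2-fold lower, with a median of -1.63. Its median against untreated was 0.60 after AS and -1.05 after ASTspan8 exosomes. The untreated level of these genes thus mostly lay between the treated arrays. RNA was taken from whole cultures, so fewer dividing cells and less RNA per cell cannot be told apart.

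The E2F motif was searched in RefSeq promoters (assembly GRCr8, 250 bases before to 50 after the gene start) as TTTCCCGC or TTTGGCGC on either strand, letters that share their last bases and can overlap when read on opposite strands. It was in 9 of 25 promoters of replication genes 2-fold lower (36.0%) and in 8 of 22 of the other measured list members (36.4%), beside 276 of 9214 measured genes (3.0%) and 485 of 33469 promoters of this length (1.45%). Of the 56 measured members 47 matched a promoter. The share was nearly equal in the 2 parts of the list, and a match is a description of letters, not a binding site. The lowest genes with a match are shown from 150 bases before to 10 after the gene start, 5′ to 3′, with the match in capitals. Gins1 is at chr3:160184770-160184929 on the plus strand, Pclaf at chr8:75315567-75315726 on the plus strand and Mcm3 at chr9:30733737-30733896 on the minus strand. In Gins1 the capitals hold the motif on both strands, overlapping.
Gins1: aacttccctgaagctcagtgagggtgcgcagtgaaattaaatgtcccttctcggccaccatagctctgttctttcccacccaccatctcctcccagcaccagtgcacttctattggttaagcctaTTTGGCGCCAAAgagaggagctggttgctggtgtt
Pclaf: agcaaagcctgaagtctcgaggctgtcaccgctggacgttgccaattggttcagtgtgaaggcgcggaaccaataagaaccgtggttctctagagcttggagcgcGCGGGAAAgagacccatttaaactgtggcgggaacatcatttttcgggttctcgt
Mcm3: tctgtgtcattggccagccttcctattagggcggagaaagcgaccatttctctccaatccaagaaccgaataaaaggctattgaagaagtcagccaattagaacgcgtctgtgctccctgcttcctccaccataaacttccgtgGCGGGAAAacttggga

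Gins1, a subunit of the GINS complex of the replicative helicase, stood at 10.51 untreated, 11.68 after AS and 8.56 after ASTspan8 exosomes, 8.69-fold lower after ASTspan8. Pclaf, a PCNA-binding protein, stood at 10.05, 11.29 and 8.19 in the same order, an 8.57-fold difference. Cdc45, which joins GINS and the MCM ring in the active helicase, was at 10.68, 11.67 and 9.03. In each of these the AS array was the highest and the ASTspan8 array the lowest. The helicase subunit gene Mcm3 stood at 12.17, 13.29 and 10.74, with differences of -2.55 and -2.18 on its 2 probes. Cdc6, which loads that helicase at origins, was at 8.41, 9.32 and 7.24. Enzymes that supply nucleotides followed the same order. Thymidine kinase Tk1 was at 12.10, 13.05 and 10.19 (7.26-fold), the reductase subunit Rrm2 at 14.10, 15.01 and 12.55, and the dUTPase Dut at 10.91, 11.62 and 9.49 (4.38-fold). Pold2, a subunit of DNA polymerase delta, was not among the low genes, at 11.62, 12.37 and 12.52, and was singled out after its values were seen.

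Among mitosis genes, Ccna2, the cyclin of S phase and G2, stood at 11.35 untreated, 12.18 after AS and 9.69 after ASTspan8 exosomes (5.62-fold lower). Ccnb1, the cyclin that drives entry into mitosis, stood at 10.39, 11.12 and 8.83. The mitotic kinase Plk1 was at 12.07, 12.90 and 10.64, and the chromosomal passenger Birc5 at 11.21, 11.95 and 9.69. Both were 4.79-fold lower after ASTspan8. Cdca3, a trigger of mitotic entry, had the largest difference of the list, at 12.31, 13.19 and 10.34. Top2a, which untangles chromosomes, was at 10.95, 11.47 and 9.19, the kinesin Kif20a at 11.98, 12.39 and 9.99, and separase, Espl1, at 9.58, 10.40 and 8.06. The single list member above 0 was the phosphatase Cdc25b, at 10.64, 10.55 and 10.96, which was singled out after its values were seen. The cell cycle transcription factor Mybl2 (9.01, 10.00 and 7.37, with -2.63 and -1.20 on 2 probes), the abscission protein Cep55 (11.21, 11.79 and 9.19) and the nuclear import carrier Kpna2 (13.35, 13.87 and 11.40) were among the 20 lowest genes of the array pair.

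Part of the genes that restrain division stood on the other side. Of 27 growth arrest and p53 target genes, 23 were measured, and 7 (30.4%, beside 4.87% of all genes) were at least 2-fold higher after ASTspan8 and none lower, with a median of 0.72. By any amount 17 of the 23 were higher and 5 lower, the lowest at -0.98. Against untreated, 9 were at least 2-fold higher and 1 lower after ASTspan8 exosomes. Gadd45a, which responds to DNA damage and stress, stood at 11.27 untreated, 11.26 after AS and 14.22 after ASTspan8 exosomes, so the AS array was at the untreated level and the ASTspan8 array 7.78-fold above the AS array. Gadd45g stood at 8.98, 10.23 and 13.01, and Gadd45b at 12.26, 12.50 and 14.34. The autophagy and arrest gene Tp53inp1 was at 8.53, 9.0 and 10.61, and the antiproliferative gene Btg1 at 13.23, 13.45 and 14.70. The p53 targets Bbc3, a cell death inducer (11.94, 12.46 and 13.51), and Mdm2, the ligase that degrades p53 (11.29, 11.72 and 12.70, a difference of 0.98 and of 0.32 on its other probe), were nearer to the 2-fold limit. The death receptor Fas was at 10.09, 9.53 and 10.75, 2-fold apart on 1 of its 2 probes (1.22 and 0.18). Cdkn1a, the p53-induced inhibitor of cyclin-dependent kinases, named after its values were seen, stood at 14.27, 14.42 and 14.92 and was not 2-fold apart.

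**Figure D2:**
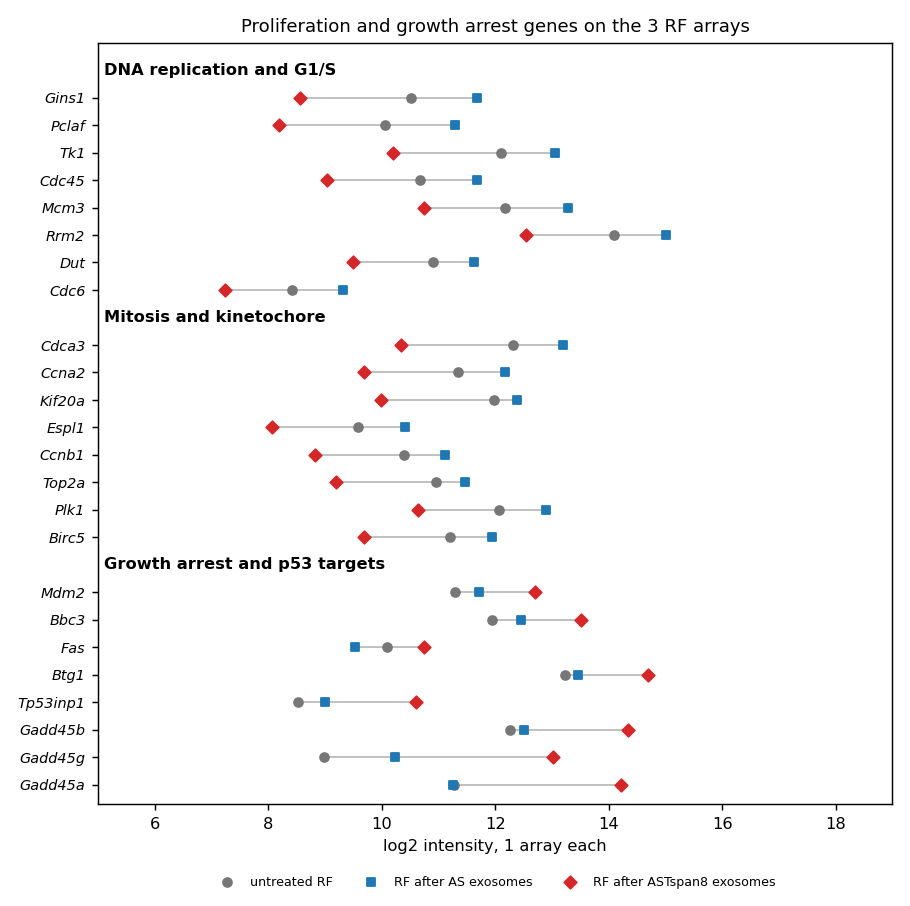
Log2 intensity (x axis) of the named replication, mitosis and growth arrest genes on the untreated, AS and ASTspan8 RF arrays, 1 array each, with a line joining the lowest and highest. In every replication and mitosis gene drawn the order is ASTspan8, untreated, AS from low to high, as for Gins1 at 8.56, 10.51 and 11.68, and in the growth arrest genes the ASTspan8 array is the highest.

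Amino acid stress genes had the largest share of 2-fold higher genes among the 38 lists. Of 39 genes of the ATF4 list 38 were measured. Of these, 20 (52.6%, beside 4.87% of all genes) were at least 2-fold higher after ASTspan8 than after AS exosomes. None was 2-fold lower, and the median was 1.02. The list was also above untreated after AS exosomes, by a median of 0.64, and after ASTspan8 exosomes by 1.69, so the 2 treated arrays lay on the same side of untreated. The composite ATF4 and C/EBP element was searched as TGATGNAAN on either strand. It was in 5 of 19 promoters of the 2-fold higher members (26.3%), in 5 of 16 of the other measured members (31.2%), in 198 of 9214 measured genes (2.15%) and in 1328 of 33469 promoters (3.97%). Of the 38 measured members 35 matched a promoter. The highest members with a match are shown in the same window, with the match in capitals: Trib3 at chr3:161275524-161275683 on the minus strand, Aars1 at chr19:55908332-55908491 on the plus strand and Mars1 at chr7:65023744-65023903 on the minus strand.
Trib3: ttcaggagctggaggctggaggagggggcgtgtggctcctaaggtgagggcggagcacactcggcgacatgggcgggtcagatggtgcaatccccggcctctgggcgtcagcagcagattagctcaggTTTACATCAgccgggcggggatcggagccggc
Aars1: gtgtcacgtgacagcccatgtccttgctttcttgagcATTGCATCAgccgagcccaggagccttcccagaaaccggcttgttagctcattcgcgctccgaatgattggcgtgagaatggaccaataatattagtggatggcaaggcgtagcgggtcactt
Mars1: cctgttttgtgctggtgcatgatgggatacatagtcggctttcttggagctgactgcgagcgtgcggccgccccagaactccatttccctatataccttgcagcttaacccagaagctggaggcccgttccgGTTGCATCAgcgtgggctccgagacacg

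Ppp1r15a, the phosphatase subunit that ends the translational block, stood at 11.27 untreated, 12.47 after AS and 15.27 after ASTspan8 exosomes (6.96-fold higher). The stress cytokine gene Gdf15 stood at 7.88, 9.53 and 12.31, and the pseudokinase gene Trib3 at 7.60, 9.06 and 11.73. Ddit3, which encodes the stress factor CHOP, was at 12.73, 13.18 and 15.79, and Atf3 at 7.33, 8.34 and 10.87. In each of these 5 genes the AS array was above untreated and the ASTspan8 array further above. Genes that supply and load amino acids showed the same order. The transfer RNA synthetase genes Wars1 (12.33, 13.15 and 15.42), Aars1 (12.85, 13.67 and 15.28) and Mars1 (11.72, 12.33 and 13.81) were 4.82-fold, 3.05-fold and 2.79-fold higher. Slc3a2, the heavy chain of amino acid carriers, was at 11.89, 12.72 and 14.85, and the mitochondrial folate enzyme gene Mthfd2 at 10.43, 11.72 and 13.73, with 1.61 to 2.01 on its 3 probes. Atf4 itself, named after its values were seen, stood at 14.35, 15.16 and 16.17. Ddit4, a stress-induced inhibitor of mTORC1, was the single measured member below 0, at 11.59, 12.35 and 12.15, and was singled out for that.

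Genes of the endoplasmic reticulum did not go with the ATF4 list. Of 27 measured chaperone and unfolded protein response genes, 2 (7.41%) were at least 2-fold higher and 6 (22.2%) lower after ASTspan8. Over all genes the shares were 4.87% and 4.83%. The list median was -0.28 (-0.61 with a stricter filter on dim probes). The chaperone gene Calr stood at 12.33 untreated, 13.06 after AS and 11.49 after ASTspan8 exosomes, and Hsp90b1 at 13.31, 14.04 and 13.02. Derl3, of the degradation pathway, was at 7.31, 8.79 and 6.94, with -1.85 on 1 probe and -0.01 on the other. The stress sensor gene Atf6 was higher, at 10.03, 11.17 and 12.43, as was Herpud1, of the degradation pathway, at 12.85, 13.07 and 14.21. Hspa5, the chaperone BiP, named after its values were seen, stood at 14.44, 15.49 and 15.63, above untreated on both treated arrays. Of 20 measured cytosolic heat shock genes, 1 was 2-fold higher (Hspa1b, 10.67, 11.12 and 12.58) and 3 lower, among them the small heat shock protein gene Cryab (13.49, 14.20 and 12.73), with a median of 0.04.

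Interferon-induced genes were higher on the ASTspan8 array and near untreated on the AS array. The antiviral list has 54 genes, 51 with a probe and 44 measured. Of these 44, 11 (25%) were at least 2-fold higher after ASTspan8 than after AS exosomes and 1 (2.27%) lower, with a median of 0.44. Over all genes the shares were 4.87% and 4.83%. Without a filter on dim probes, and with a stricter one, the list median was 0.27. Its median against untreated was -0.10 after AS and 0.35 after ASTspan8 exosomes. The core of the interferon-stimulated response element was searched as GAAANNGAA on either strand. It was in 8 of 9 promoters of the 2-fold higher members (88.9%), in 16 of 28 of the other measured members (57.1%), in 664 of 9214 measured genes (7.21%) and in 3251 of 33469 promoters (9.71%). Promoters were matched for 37 of the 44 members. The highest members with a match are shown in the same window, with each match in capitals: Rsad2 at chr6:48788111-48788270 on the minus strand, Irf7 at chr1:205800014-205800173 on the minus strand and Ifit3 at chr1:241527176-241527335 on the plus strand.
Rsad2: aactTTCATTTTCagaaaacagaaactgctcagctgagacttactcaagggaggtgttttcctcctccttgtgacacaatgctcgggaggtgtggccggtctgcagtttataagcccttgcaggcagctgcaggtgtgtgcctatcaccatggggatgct
Irf7: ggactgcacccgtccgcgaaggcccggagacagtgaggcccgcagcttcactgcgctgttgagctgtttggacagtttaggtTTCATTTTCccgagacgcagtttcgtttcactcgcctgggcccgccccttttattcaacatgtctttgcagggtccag
Ifit3: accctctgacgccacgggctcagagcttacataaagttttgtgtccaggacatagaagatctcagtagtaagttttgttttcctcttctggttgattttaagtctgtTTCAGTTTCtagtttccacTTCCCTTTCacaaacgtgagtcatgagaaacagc

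Usp18, which removes ISG15 from proteins and dampens interferon signalling, stood at 7.92 untreated, 7.59 after AS and 10.76 after ASTspan8 exosomes, with differences of 3.17 and 2.44 on its 2 probes. Rsad2, the antiviral enzyme viperin, stood at 8.37, 8.43 and 11.25, a 7.06-fold difference. Irf7, the factor that amplifies the type I interferon response, was at 11.07, 10.71 and 12.64, and Ifit3, which holds back viral RNA translation, at 8.73, 8.25 and 10.05. In all 4 the untreated and AS levels were within 0.5 of each other. The RNA sensor regulator gene Dhx58 was at 7.86, 7.61 and 9.20, and the oligoadenylate synthetase gene Oas1a at 7.38, 7.20 and 8.76, with Oas1i at 7.19, 7.17 and 8.42. The Oas1 genes are close copies and their probes may share signal. Trim25, a ligase of the RNA sensing pathway, was the 1 gene in the opposite direction, at 12, 12.43 and 10.83. Isg15 (11.38, 12 and 12.39) and Mx1 (9.81, 8.96 and 10.01) were named after their values were seen, and the ASTspan8 array stood 1.01 and 0.20 above untreated. Ifi27l2b, an interferon-inducible gene outside the list, stood at 12.70, 13.35 and 16.44, with 3.09 and 3.81 on its 2 probes.

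Of 19 measured MHC class I and antigen processing genes, 6 (31.6%) were at least 2-fold higher and 1 (5.26%) lower. Over all genes the shares were 4.87% and 4.83%. The list median was 0.65 (-0.15 after AS and 0.43 after ASTspan8 exosomes against untreated). Tap1, a subunit of the peptide transporter, stood at 9.36 untreated, 9.21 after AS and 10.83 after ASTspan8 exosomes. The class I chain genes RT1-S3 (12.38, 11.55 and 12.90), RT1-CE7 (12.51, 11.87 and 13.21) and RT1-CE5 (13.18, 12.53 and 13.83) were lowest on the AS array, with the untreated level between the treated arrays. RT1 genes are close copies, so their probes may measure each other. The immunoproteasome subunit gene Psmb10 went the other way, at 14.12, 14.69 and 12.80. The invariant class I light chain gene B2m, named after its values were seen, was at 15.52, 15.25 and 15.20.

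Part of the clock and lysosome genes were higher after ASTspan8 exosomes. Of 17 circadian genes 15 were measured, of which 6 (40%, beside 4.87% of all genes) were at least 2-fold higher and none lower. The median was 0.90 (0.68 with no filter on dim probes and 1.79 with a stricter one). The list's median against untreated was 0.13 after AS and 0.94 after ASTspan8 exosomes. Ciart, a repressor of the clock activators, stood at 6.87 untreated, 8.02 after AS and 10.35 after ASTspan8 exosomes. The repressor genes Nr1d1 (8.17, 8.76 and 10.91) and Cry1 (8.04, 8.51 and 10.37) stood in the same order. The output factor gene Dbp was at 13.28, 13 and 14.79, with 1.51 to 1.80 on 3 probes, and Bhlhe40 at 8.26, 9.19 and 10.97. The activator gene Bmal1 was under 2-fold apart, at 10.12, 10.18 and 11.08, as was its partner Clock, at 7.55, 8.02 and 7.70. The period genes Per1 (0.17), Per2 (0.68) and Per3 (0.50) and Bhlhe41 (0.96) were under 2-fold apart in this difference, as were Nr1d2 (0.45), Cry2 (0.46) and Tef (0.40). No source used here gives the hours at which cultures were collected.

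Of 37 measured lysosomal enzyme and proton pump genes, 10 (27%, beside 4.87% of all genes) were at least 2-fold higher. None was 2-fold lower, and the median was 0.41. Against untreated the list median was -0.34 after AS and -0.04 after ASTspan8 exosomes, so over this list the AS array stood further from untreated. Atp6v1a, a catalytic subunit of the proton pump, stood at 11.37 untreated, 11.17 after AS and 12.42 after ASTspan8 exosomes (1.25, and 0.39 on its other probe). Atp6v1b2 was at 10.40, 10.03 and 11.20, and Atp6v1h at 11.53, 11.37 and 12.49. The calcium channel gene Mcoln1 was at 11.58, 11.43 and 12.63, and the sialidase gene Neu1 at 9.27, 9.33 and 10.48. Sqstm1, the autophagy receptor p62, was at 13.77, 13.17 and 14.82 on its brightest probe, while its other probe differed by -1.0, so its direction rests on the choice of probe.

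**Figure D3:**
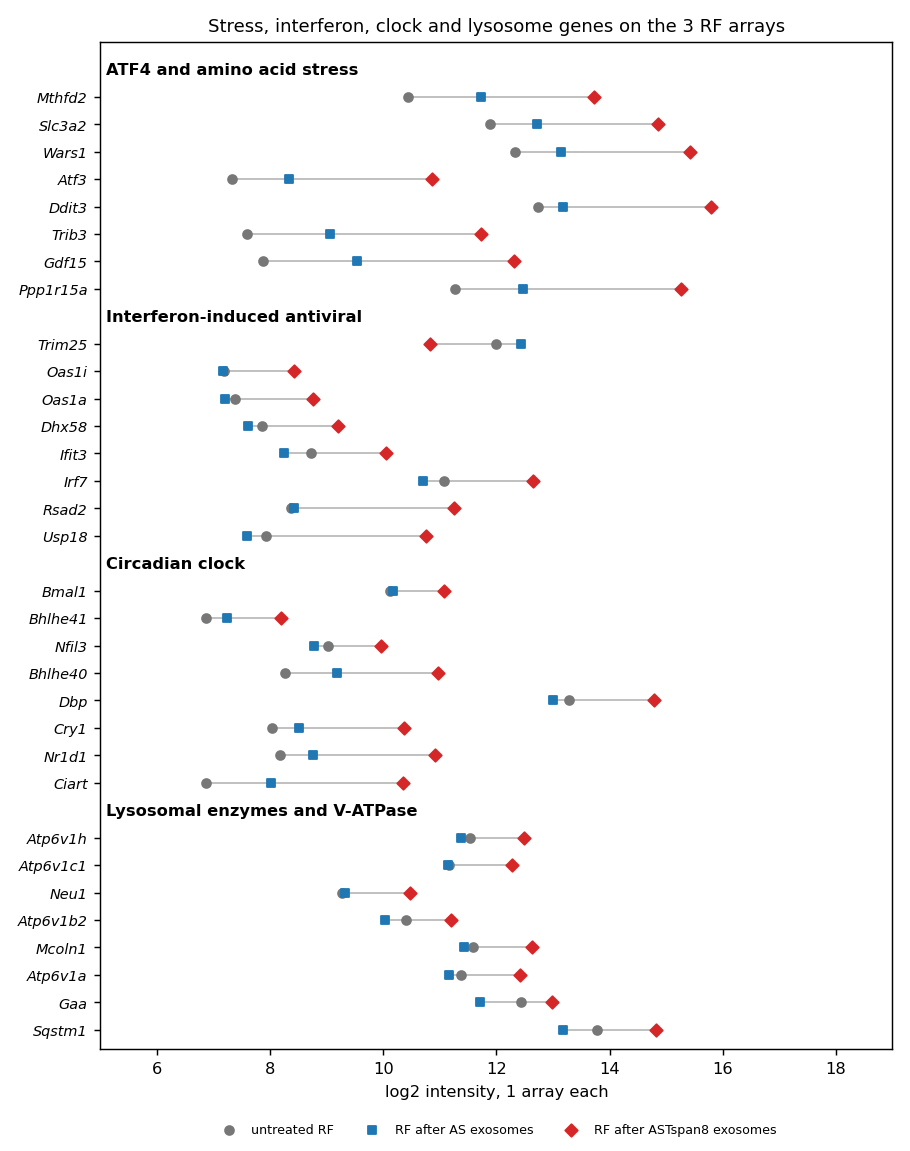
Log2 intensity (x axis) of the named ATF4, interferon, clock and lysosome genes on the untreated, AS and ASTspan8 RF arrays, 1 array each, with a line joining the lowest and highest. The AS array lies between untreated and ASTspan8 in the ATF4 genes, as for Ddit3 at 13.18 between 12.73 and 15.79, and close to untreated in the interferon genes, where Trim25 alone is lowest after ASTspan8.

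Matrix genes differed by list. In the small leucine-rich proteoglycans, which space collagen fibrils, both treated arrays lay below untreated. Their list median was -1.71 after AS and -2.33 after ASTspan8 exosomes against untreated. Of 10 measured genes 5 were at least 2-fold lower after ASTspan8 than after AS, beside 4.83% of all genes. The median of that difference was -0.98 (-0.55 with no filter on dim probes). Epyc stood at 13.43 untreated, 11.93 after AS and 8.81 after ASTspan8 exosomes (8.69-fold lower). Omd stood at 13.45, 9.85 and 7.75, Lum at 12.91, 10.76 and 9.17, and Aspn at 12.35, 9.18 and 8.09. Prelp was at the untreated level after AS exosomes and lower after ASTspan8, at 12.67, 12.68 and 11.59. Podnl1 was at 9.17, 7.85 and 6.98. Other members did not follow this order. Ogn was low on both treated arrays (14.87, 12.62 and 12.39), Dcn was lowest after AS exosomes (14.70, 12.78 and 13.51), and Fmod (14.03, 13.78 and 14.38) and Bgn (18.40, 18.25 and 18.31) were within 0.5 of untreated on both.

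Of 22 measured collagen chain genes, 4 (18.2%) were at least 2-fold lower and none higher, beside 4.83% and 4.87% of all genes. The list median was -0.29 (-0.64 with a stricter filter on dim probes). Against untreated it was -0.12 after AS and -0.50 after ASTspan8 exosomes. Col1a1, a chain of the main fibrillar collagen, stood at 14.67 untreated, 14.88 after AS and 12.41 after ASTspan8 exosomes, with -2.47 and -1.58 on its 2 probes. Its partner chain Col1a2 was at 17.40, 17.18 and 16.14, and Col3a1 at 15.82, 13.99 and 12.21. Col14a1 was at 8.92, 8.97 and 6.76 on its brightest probe, and another probe differed by 0.19. Enzymes that mature collagen were lower as well, with 4 of 19 measured genes at least 2-fold lower and a median of -0.38. The crosslinking oxidase genes Lox (12.83, 13.23 and 11.59) and Loxl1 (12.81, 12.35 and 11.10), the propeptide protease gene Adamts2 (11.92, 11.18 and 9.94) and the hydroxylase gene P3h1 (13.46, 13.50 and 12.29) were those 4. Of 13 measured elastic fibre genes 2 were at least 2-fold lower and 1 higher, with a median of -0.27 (-0.11 with no filter on dim probes and -0.46 with a stricter one). The counts were 0 and 1 of 21 matricellular genes (median -0.05, or -0.25 with the stricter filter), and 2 and 0 of 27 matrix protease and inhibitor genes (median 0.08). Eln, which encodes elastin, stood at 11.93, 11.38 and 8.81, a 5.94-fold difference. Fbln2, another elastic fibre gene, was higher after ASTspan8 than after AS exosomes, at 13.74, 12.68 and 14.18, as was the matricellular gene Postn at 9.60, 8.25 and 9.71. In both, the AS array stood apart and the ASTspan8 array was within 0.5 of untreated.

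The list of fibroblast markers, which shares many of these genes, was lower as well. Of 28 with a probe, 24 lay above log2 9 untreated, 23 after AS and 24 after ASTspan8 exosomes, while the log2 of their summed intensity was 20.06, 19.68 and 18.91. Of 26 measured, 8 (30.8%) were at least 2-fold lower and 2 (7.69%) higher after ASTspan8 than after AS. Over all genes the shares were 4.83% and 4.87%. Among the lower were S100a4 (18.04, 17.88 and 16.14) and the growth factor receptor gene Pdgfra (14.97, 14.11 and 12.77). Vim was at 16.75, 15.73 and 16.11. The log2 of the summed intensity was 12.52, 12.38 and 12.70 for endothelial markers, 13.57, 13.11 and 12.92 for epithelial markers, and 12.61, 12.43 and 12.54 for leukocyte markers. Of 19 leukocyte markers with a probe, 2, 2 and 3 lay above log2 9. Of 12 measured past the filter, 7 were higher by any amount after ASTspan8 than after AS exosomes and 5 lower. The lower ones included Cd14 (11.52, 11.13 and 10.67), Csf1r (7.51, 7.47 and 7.25) and Aif1 (8.01, 7.80 and 7.61). Lyz2 (6.35, 6.16 and 8.17) and Cd68 (8.10, 8.04 and 9.28), which encode a lysozyme and a lysosomal protein of phagocytes, were at least 2-fold higher after ASTspan8, while Ptprc was at 6.31, 6.28 and 6.25. Their part in the other differences was not tested.

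Some chemokine genes were lower after ASTspan8 than after AS exosomes. Of 33 measured chemokine and cytokine genes, 8 were at least 2-fold lower and none higher, beside 4.83% and 4.87% of all genes, with a median of -0.34 (-0.54 with a stricter filter on dim probes). Against untreated it was 0.07 after AS and -0.33 after ASTspan8 exosomes. Ccl2, which attracts monocytes, stood at 15.15 untreated, 15.64 after AS and 13.46 after ASTspan8 exosomes, and its relative Ccl7 at 13.33, 13.62 and 12.42. The neutrophil attractant genes Cxcl1 (15.44, 15.62 and 13.49) and Cxcl3 (12.46, 12.44 and 11.41) were within 0.5 of untreated after AS exosomes and lowest after ASTspan8 exosomes. Cxcl12, which retains CXCR4-bearing cells, was at 16.18, 16.65 and 14.57, and Cx3cl1, the membrane-bound fractalkine, at 16.97, 16.17 and 14.63. Ccl19, an attractant of lymphocytes and dendritic cells, was at 10.79, 10.82 and 9.68. For Ccl27 it was the AS array that stood apart, at 8.81, 10.12 and 8.32. Of 24 measured cytokine and chemokine receptor genes 2 (8.33%) were at least 2-fold lower and none higher, with a median of -0.14. The soluble receptor gene Tnfrsf11b, which encodes osteoprotegerin, was at 11.28, 11.28 and 9.12. Il1rl1, the receptor of interleukin 33, was at 10.47, 12.87 and 10.80 and thus differed through the AS array, with -2.07 and -0.57 on its 2 probes. Of 28 measured integrin and adhesion molecule genes 3 (10.7%) were at least 2-fold lower and none higher, with a median of -0.285. The leukocyte adhesion molecule gene Vcam1 stood at 15.19, 14.43 and 11.97, and the integrin genes Itgb5 at 13.75, 13.60 and 12.09 and Itga1 at 13.16, 12.68 and 11.54. Of 12 measured NF-kappaB genes 1 was 2-fold lower, Nfkbiz (9.13, 9.48 and 7.87), and the median was 0.13.

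**Figure D4:**
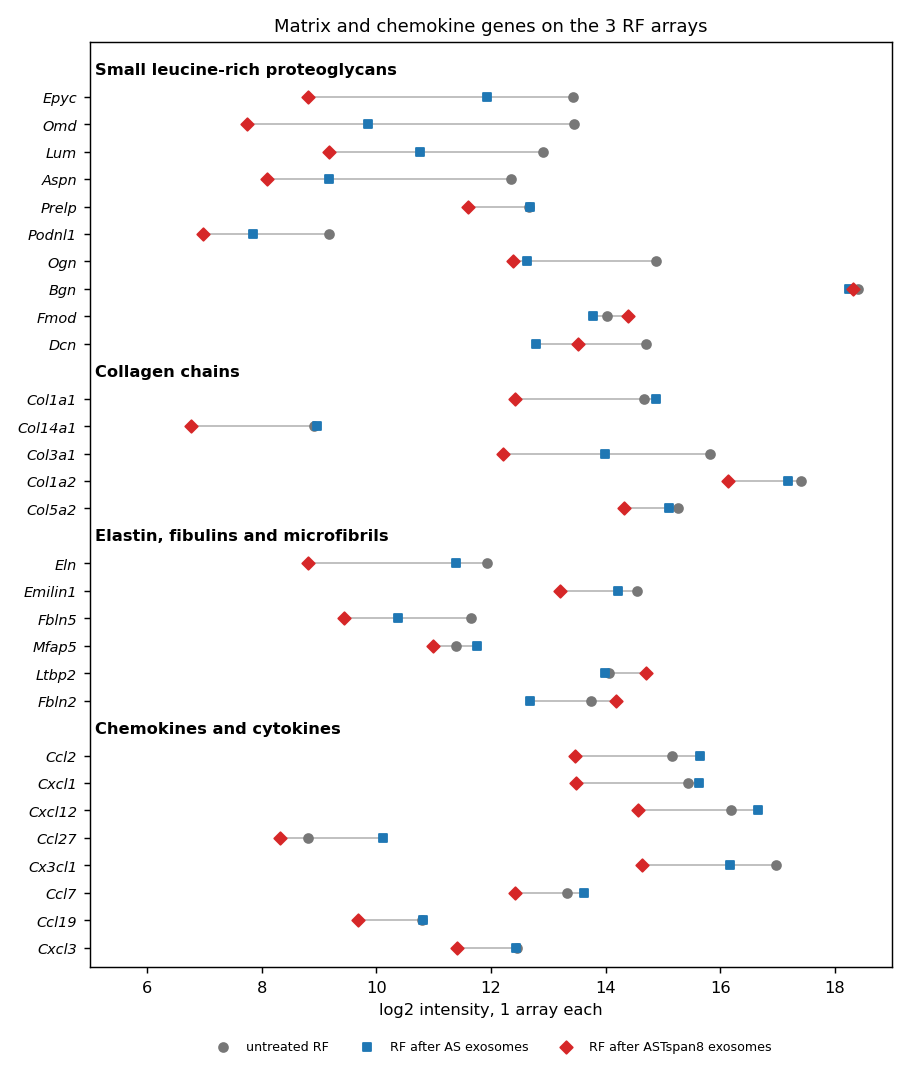
Log2 intensity (x axis) of the named proteoglycan, collagen, elastic fibre and chemokine genes on the untreated, AS and ASTspan8 RF arrays, 1 array each, with a line joining the lowest and highest. Epyc, Omd, Lum and Aspn step down from untreated to AS to ASTspan8, whereas in Col1a1 and most of the chemokines the AS array sits near or above untreated and only the ASTspan8 array is low, as for Ccl2 at 13.46.

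Acute phase genes stood apart from the chemokines. Of 16 measured complement genes and Lcn2, 3 (18.8%) were at least 2-fold higher and none lower, beside 4.87% and 4.83% of all genes. The list median was 0.09 (0.31 with a stricter filter on dim probes). Complement component C3 was at 12.18 untreated, 10.67 after AS and 12.08 after ASTspan8 exosomes, so that the AS array was low. C4a was at 10.97, 11.65 and 12.68, the iron carrier gene Lcn2 at 11.52, 11.47 and 12.50, and Cfb, of the alternative complement pathway, at 9.31, 10.12 and 11.08, just inside 2-fold with a difference of 0.96.

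In the glycolysis list and in the cholesterol and fatty acid list, the median stood above untreated after AS and below it after ASTspan8 exosomes. Of 32 measured glycolysis and hypoxia-induced genes, 9 (28.1%) were at least 2-fold lower and 2 (6.25%) higher. Over all genes the shares were 4.83% and 4.87%. The list median was -0.61 (0.37 after AS and -0.23 after ASTspan8 exosomes against untreated). Single genes went both ways. Against untreated, 7 of the 32 were at least 2-fold higher and 4 lower after ASTspan8 exosomes, and 4 higher and none lower after AS exosomes. The lactate carrier gene Slc16a3 had the second largest low difference of the array pair, at 12.52 untreated, 14.44 after AS and 11.13 after ASTspan8 exosomes (9.92-fold). The enzyme genes Tpi1 (14.26, 15.16 and 13.35), Ldha (15.68, 16.49 and 15.02) and Gapdh (15.97, 16.36 and 15.11) had the same order. Ankrd37, a hypoxia-induced gene, was at 9.25, 9.43 and 7.17. Vegfa, the endothelial growth factor and also a hypoxia-induced gene, was higher after ASTspan8, at 11.17, 11.89 and 12.94, with 1.05 to 1.44 on 4 probes, as was the enolase gene Eno2 at 11.82, 11.90 and 13.19. Of 31 measured cholesterol and fatty acid synthesis genes, 11 were at least 2-fold lower and 1 higher, with a median of -0.52. Against untreated the list median was 0.32 after AS and -0.33 after ASTspan8 exosomes. Among them the sterol carrier gene Stard4 was at 8.68, 9.12 and 6.95, the isomerase gene Idi1 at 11.43, 12.03 and 10.09, and fatty acid synthase, Fasn, at 12.71, 13.12 and 11.36. Insig1, which holds back sterol synthesis, was higher, at 11.71, 12.24 and 13.57. Acat2, an enzyme of the first step of sterol synthesis, was at 13.14, 13.71 and 11.21, but its other probe differed by -0.18.

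Of 4 measured linker histone genes 2 (50%) were at least 2-fold lower and none higher, beside 4.83% and 4.87% of all genes. These 2, H1f5 and H1f1, differed mainly through the AS array. H1f5 stood at 10.57 untreated, 12.62 after AS and 10.56 after ASTspan8 exosomes, and H1f1 at 8.50, 10.16 and 7.70. H1f4 was above untreated on both treated arrays, at 11.25, 13.37 and 13.17, and H1f10 was at 7.26, 7.70 and 7.90. Replication histone genes are close copies whose messages mostly lack poly(A) tails, so these probes are uncertain. Of 11 measured core histone genes 2 (18.2%) were at least 2-fold lower and none higher. By any amount 7 were higher and 4 lower, with a median of 0.29. The 2 lower ones were the variant genes H2ax (9.06, 9.84 and 8.03) and H2az1 (14.12, 14.81 and 13.55), which have polyadenylated messages. Both followed the order of the proliferation genes, unlike the list as a whole.

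The highest gene of the array pair was Cox6a2, the muscle and heart form of a cytochrome oxidase subunit, at 6.58 untreated, 7.33 after AS and 10.91 after ASTspan8 exosomes (12-fold higher). The exosome RNA arrays read 9.92 and 9.90 for this gene. Casp4, an inflammatory caspase, stood at 10.95, 11.01 and 13.82, and the zinc finger gene Zc3h8 at 10.11, 9.57 and 12.45. The glycogen-binding protein gene Stbd1 (8.40, 8.36 and 10.91), the phosphodiesterase gene Gpcpd1 (7.97, 7.79 and 10.31) and the transcription factor gene Mef2b (7.84, 7.91 and 10.42) were within 0.5 of untreated after AS exosomes. The lowest gene of the array pair was Aldh3a1, an aldehyde dehydrogenase, at 14.35, 13.92 and 10.33 (12-fold lower). The microsomal transferase gene Mgst3 was at 11.11, 10.80 and 8.29, and the pattern recognition gene Ptx3 at 9.89, 11.20 and 8.39, with -2.81 and -1.06 on its 2 probes.

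Whether the difference between ASTspan8 and AS exosomes was the same in RF as in EC was the 1 comparison with a test. EC are labelled endothelial cells, although the untreated EC array had Pecam1 at 7.50 and Cdh5 at 7.87, beside Vim at 16.59 and Col1a2 at 17.16. In the limma fit of 9 group means on 11 arrays, 3148 of 11069 genes (28.4%) had a different ASTspan8 minus AS effect in RF than in EC at a Benjamini-Hochberg adjusted p under 0.05. Of these, 1669 (15.1%) were higher in RF and 1479 (13.4%) lower. The spread came from 2 duplicate pairs with 2 residual degrees of freedom, single arrays were assumed to vary alike, and nothing in the labels says whether duplicates are separate cultures. Without either EC array after ASTspan8 exosomes, no probe passed, with 5104 and 5124 of 18619 probes at an unadjusted p under 0.05.

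The proliferation lists separated RF from EC. Over all genes 13.4% passed the test with a lower effect in RF and 15.1% with a higher one. Of 56 measured replication genes 33 passed with a lower effect in RF and 1 with a higher one. The list median was -1.26 in RF and -0.09 in EC. For Mcm3 the EC arrays read 13.07 after AS and 13.26 and 13.15 after ASTspan8 exosomes, so the effects differed by -2.69 (SE 0.136, adjusted p = 0.0142, limma). Of 48 mitosis genes 32 were lower in RF and 1 higher, with medians of -1.63 and -0.71, and in EC too the median was below 0. Ccna2 read 12.46 after AS and 11.64 and 11.63 after ASTspan8 exosomes in EC, and the effects differed by -1.67 (SE 0.114, adjusted p = 0.0142, limma).

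Stress, clock and lysosome genes had larger effects in RF. Of 38 ATF4 genes 24 passed with a higher effect in RF and 1 with a lower one, beside 15.1% and 13.4% of all genes, and the medians were 1.02 in RF and 0.26 in EC. Ddit3 was at 12.75 in EC after AS and 12.61 and 12.54 after ASTspan8 exosomes, and its effects differed by 2.79 (SE 0.116, adjusted p = 0.0142, limma). Gadd45a, at 11.55 in EC after AS and 10.98 and 11.02 after ASTspan8 exosomes, had the largest higher effect in RF among all genes past the test, 3.51 (SE 0.107). Of 15 clock genes 7 were higher in RF and none lower, and of 37 lysosome genes 17 were higher and 3 lower. The EC medians of these lists were 0.03 and 0.01.

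For interferon genes the list median was 0.44 in RF and 0.50 in EC, with 10 of 44 genes higher in RF and 11 lower by the test, beside 15.1% and 13.4% of all genes. Rsad2 read 8.80 in EC after AS and 11.24 and 11.22 after ASTspan8 exosomes. Its effects differed by 0.39 (SE 0.126) and did not pass (adjusted p = 0.103, limma), which does not show them to be equal. Usp18, at 8.33, 9.76 and 9.76 in EC, had the larger effect in RF by 1.74 (SE 0.298, adjusted p = 0.029, limma). Isg15 and Mx1 had the larger effect in EC, with Isg15 at 11.23 after AS and 13.15 and 13.13 after ASTspan8 exosomes and a difference of effects of -1.52 (SE 0.106, adjusted p = 0.0142, limma).

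Part of the matrix, chemokine and acute phase genes had lower effects in RF. The counts of genes past the test and lower in RF were 10 of 22 collagen chains, 9 of 19 collagen enzymes, 6 of 10 proteoglycans and 14 of 33 chemokines, with 0, 0, 1 and 1 higher, beside 13.4% lower and 15.1% higher of all genes. Eln stood at 12.54 in EC after AS and at 13.66 and 13.62 after ASTspan8 exosomes, against 11.38 and 8.81 in RF, so the effects were opposite in sign and differed by -3.67 (SE 0.12, adjusted p = 0.0142, limma). Ccl19 was opposite too, at 7.36 and then 9.36 and 9.38 in EC. Of 16 complement genes with Lcn2, 8 were lower in RF and 1 higher. C4a read 10.23 after AS and 13.77 and 13.72 after ASTspan8 exosomes in EC, with a difference of effects of -2.49 (SE 0.195, adjusted p = 0.0142, limma). Of 4 linker histone genes 3 were lower in RF, and their median was 1.38 in EC and -1.13 in RF (-0.20 in RF with no filter on dim probes and -2.06 with a stricter one).

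**Figure D5:**
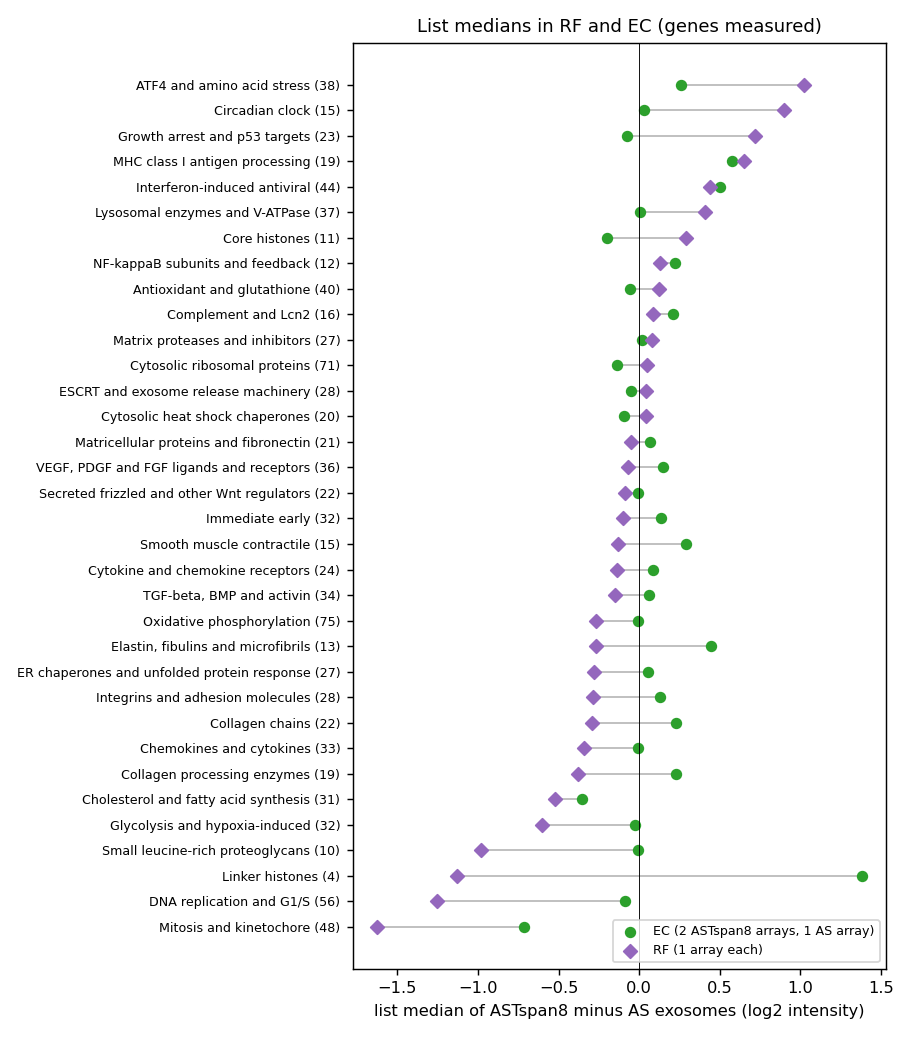
Median of ASTspan8 minus AS exosomes in log2 intensity (x axis) for each gene list (y axis, number of genes measured), in RF with 1 array each and in EC with 2 ASTspan8 arrays and 1 AS array, joined by a line. RF and EC lie close for the interferon list at 0.44 and 0.50 and far apart for the 4 linker histones at -1.13 and 1.38 (in RF -0.20 with no filter on dim probes and -2.06 with a stricter one), and the replication list is at -1.26 in RF and -0.09 in EC.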

How the data were processed

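Total RNA of 11 rat samples was hybridised to 1-colour Agilent arrays, 1 array a sample, with Cy3 given as the dye while the protocol in the labels speaks of biotinylated cRNA. What the authors deposited is 1 linear intensity per probe and array, scaled between arrays by a procedure not given in the sources used here. Every array has the same highest value, 422913, and array medians differ by 0.08 log2. Background correction and saturation could not be read from these values, and the number of arrays limits the precision.

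The deposited intensity values were floored at their 1st percentile (62.2, log2 5.96), which raised 0.816% of them. They were then put on the log2 scale with no further normalization. Probes whose percentile within the array averaged above 50 in 1 or more of the 9 groups were retained, 18619 of 30367, and the other 11748 were removed. Of all probes 20369 had 1 gene symbol, none had several and 9998 had none. Symbols were updated through the RefSeq gene table of GRCr8: 17245 by accession, 2561 by current symbol, 551 by synonym, while 12 retained their platform symbol. The brightest probe over the 11 arrays stood for a gene, which gave 11069 genes.

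Groups followed the titles. RF arrays were compared as log2 differences of 1 array and 1 array with no test, and 2-fold differences were counted. The difference between RF and EC was tested with limma 3.58.1 (lmFit and eBayes) in R 4.3.3 with Benjamini-Hochberg adjustment over all probes kept at 0.05. The fit was also run on simulated data whose noise on every array followed the spread estimated from the duplicates. That run could not check whether single arrays vary like the duplicates. All other steps used Python 3.11.15. Alternatives were quantile normalization, other filters, the mean of a gene's probes, no floor, other fold thresholds, other arrays or moderation in the fit, and leaving out each duplicate array. Promoters came from RefSeq (GRCr8) and were matched by symbol.

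The members and the 38 gene lists were chosen with earlier results of these data known. Genes were named by a fixed rule: the 20 largest differences in each direction, of each list the 8 largest in size (all in lists of 16 or fewer measured genes), Tspan8, Cd44, the cell type markers, the promoter genes, and the 10 largest differences between RF and EC in each direction. Genes outside the rule are said to be so.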

Additional observations from a re-analysis of the deposited data

Results flagged for a closer look

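The genes here drew attention because their ASTspan8 minus AS effect differed between RF and EC in the limma interaction test. In all 3148 of 11069 genes passed (Benjamini-Hochberg adjusted p under 0.05), and the 10 largest differences in each direction are given as RF effect minus EC effect on the log2 scale. Without either EC array after ASTspan8 exosomes, none passed.

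Lower in RF were 4 histone genes, Hist1h2an (-3.90), H1f5 (-3.68), H1f1 (-3.66) and Hist1h2ai (-3.23), whose probes may share signal with close copies. Hist1h2an stood at 9.86 after AS and 7.77 after ASTspan8 exosomes in RF, and at 7.74 and then 9.61 and 9.48 in EC, so the effects had opposite signs. Eln (-3.67), the chemokine gene Ccl19 (-3.15) and the phospholipase gene Pla2g2a (-3.43) were also opposite in sign, with Pla2g2a at 9.41 and 7.19 in RF and at 13.32 and then 14.49 and 14.56 in EC. Sertad3 differed by -3.19 and Col1a1 by -3.08 (adjusted p = 0.0382, limma). For the lactate carrier gene Slc16a3 (-3.25) the EC arrays lay together, at 14.37, 14.32 and 14.30.

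Higher in RF were the stress genes Gadd45a (3.51) and Ddit3 (2.79), the caspase gene Casp4 (2.68), Zc3h8 (3.28), Gpcpd1 (3.01) and Tmem116 (2.67, adjusted p = 0.0414, limma). Tmem116 differed by 2.53 on 1 probe and 0.72 on the other in RF. Hist1h2bq (2.75) stood at 10.08 and 12.17 in RF and at 10.21 and then 9.54 and 9.56 in EC. Gpnmb (2.77), a glycoprotein of lysosomes, stood at 12.47 and 14.01 in RF and at 14.03 and then 12.80 on both arrays in EC. Mettl7b (3.45) and Six3 (3.03) were near the floor on all RF arrays, and their difference lay in the single EC array after AS exosomes, at 9.67 and 9.20, where the EC arrays after ASTspan8 exosomes stood between 6.03 and 6.27.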

How the results depend on the processing

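The counts of 539 higher and 535 lower genes rest on 1 array each. They stayed within 1.5 times under quantile normalization, other filters, the mean of a gene's probes and no floor. At 1.5-fold they were 1612 and 1410, and at 3-fold 115 and 163. The median of the growth arrest list was 0.50 with no filter on dim probes, and that of the interferon list 0.27 with no filter and 0.27 with the stricter one. Nid2, a basement membrane gene, turned from -0.51 to 0.035 with the mean of its 2 probes, which differ in sign. Of 38 list medians 16 moved under at least 1 alternative. Of the named genes 352 were followed, and 49 moved with the mean of their probes. The interaction test called 5033 of 18619 probes, 6907 with trend and robust moderation, 5393 with only the 7 EC and RF arrays, 4912 after quantile normalization and 2310 of 30367 with no filter. Leaving out 1 duplicate array gave 0 to 5393. No paired analysis was possible because the RF arrays carry no replicate numbers, and the number in the titles is shared only by groups that were not compared.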

Other observations

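Signalling and redox genes gave smaller or mixed differences between ASTspan8 and AS exosomes in RF. Of 32 measured immediate early genes, 3 (9.38%) were at least 2-fold higher and 2 (6.25%) lower, beside 4.87% and 4.83% of all genes. The growth factor response gene Egr1 stood at 10.94 untreated, 12.27 after AS and 10.63 after ASTspan8 exosomes, and Dusp6, a phosphatase that limits ERK signalling, at 13.71, 14.16 and 12.62. The transcription factor gene Klf2 was higher, at 7.51, 7.90 and 9.56. In the TGF-beta, BMP and activin list 1 of 34 genes was 2-fold higher and 4 lower. Bmp4 was at 13.60, 13.60 and 11.41, the activin antagonist gene Fst at 13.40, 14.68 and 12.81, and the receptor gene Tgfbr2 at 9.42, 9.54 and 10.93. Of 40 antioxidant genes 4 were at least 2-fold higher and 5 lower. By any amount 21 were higher and 19 lower, with a median of 0.12. The glutathione peroxidase gene Gpx1 (13.01, 12.68 and 14.16) and Nfe2l2, which encodes the antioxidant regulator NRF2 (13.67, 13.53 and 14.75), were higher. Srxn1 (11.56, 12.39 and 10.98) and Prdx1 (13.79, 14.26 and 12.88), which are among the known targets of NRF2, were lower. The thioredoxin inhibitor gene Txnip (11.65, 11.06 and 9.48) was lower too. NRF2 targets were not counted as a set.

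Of 75 oxidative phosphorylation genes, 1 (1.33%) was 2-fold higher, Cox6a2, and 6 (8%) lower, beside 4.87% and 4.83% of all genes. The list median was -0.27. The lower ones included Uqcrh (14.93, 14.72 and 12.95), Ndufa4 (14.11, 14.35 and 12.83) and Atp5mf (15.76, 15.97 and 14.53). None of 71 cytosolic ribosomal protein genes was 2-fold apart, with a median of 0.05. Of 15 smooth muscle contractile genes none was 2-fold apart either. In the list of exosome release machinery, 1 of 28 genes was 2-fold higher, the membrane raft gene Flot1 (13.61, 13.32 and 14.36), and none lower. The exosomal tetraspanin genes Cd81 (13.60, 12.58 and 13.44) and Cd151 (11.63, 11.33 and 12.17) were under 2-fold apart.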
